A study of Mus musculus with 16 samples.

Results

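The genes described here are 9 markers of the layers of the cerebral cortex. Cux1, Cux2, Rorb and Rspo1 mark neurons of the upper layers, and Fezf2, Bcl11b, Tbr1, Foxp2 and Rbp4 mark neurons of the deep layers. They were chosen by name, and the table of 54532 genes held each of the 9 in 1 entry. All 9 passed the filter on low counts, among 17736 genes tested. The study sequenced RNA in bulk from 16 libraries of female mice of 9 months of age. Each Ch25h genotype, +/+ or -/-, was sampled without tau (Tau-) and with tau (Tau+), which gives 4 groups of 4 libraries. Ch25h encodes cholesterol 25-hydroxylase, an interferon-induced enzyme that makes 25-hydroxycholesterol, and the -/- groups lack it. Tau- libraries are negative and Tau+ libraries positive for tau by their labels. The tau line and its promoter are not named in the sources used here, nor is it said which cells an allele acts in or whether each library is 1 animal. The p-values therefore measure only the spread between these libraries.

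The cortex is built of layers of excitatory neurons that differ in their connections. Upper layer neurons project mainly within the cortex, while many deep layer neurons send axons to the thalamus, brainstem and spinal cord. Transcription factors set and maintain these identities: Cux1, Cux2 and Rorb in the upper layers, and Fezf2, Bcl11b, Tbr1 and Foxp2 in the deep layers. In bulk tissue the balance of the 2 marker sets can reflect both the depth of the cut through the cortex and the state of the neurons. Fewer cells of a type and less RNA per cell cannot be told apart in such data.

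The tissue is given as frontal cortex in each sample's label and as hippocampus in the series design text. All 9 layer markers were detected in all 16 libraries, with 161 counts (Foxp2) to 5042 counts (Tbr1) per library. The other projection neuron genes listed, 10 in number, summed to between 4902 and 6189 CPM (counts scaled to a common library size with TMM factors), none of them at 0 in every library. The 7 hippocampal markers, Prox1 among them, summed to between 35.1 and 78.2 CPM, and the 9 striatal markers to between 224 and 459.7 CPM. Most of the projection neuron sum came from Camk2a and Slc17a7. Sums of lists of different genes do not tell which of the tissues named is right. The 5 choroid plexus markers differed most between libraries, with sums of 14.6 to 1418 CPM in Ch25h+/+ Tau-, 34.2 to 2274 CPM in Ch25h+/+ Tau+, 42.7 to 1613 CPM in Ch25h-/- Tau- and 54.5 to 2727 CPM in Ch25h-/- Tau+. Their part in the layer marker values was not tested. Depth was 15530352 to 25602500 counts per library.

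Ch25h itself had 0 counts in all 8 Ch25h-/- libraries and 5 to 30 counts in the 8 Ch25h+/+ libraries. Prnp was 2.14-fold higher with tau in each Ch25h genotype (edgeR, adjusted p = 2.434e-06 and 9.369e-06 for Ch25h+/+ and Ch25h-/-). It was read only as a check of the labels, and the source of the added Prnp reads was not tested. A further difference ran almost along the Ch25h genotype. The ribosomal RNA gene CT010467.1 stood at 2289 to 5684 CPM, here taken on unscaled library totals, in 7 of 8 libraries without Ch25h and at 110.8 to 474.6 CPM in those with Ch25h. The exception was Ch25h-/- Tau+ replicate 1, at 153.5. Malat1, a nuclear RNA, was 2.90-fold higher on average in Ch25h-/- (edgeR, adjusted p = 0.0004929). This library class and the loss of Ch25h cannot be told apart except through that 1 library.

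The promoters of 2 upper and 2 deep markers are shown because these pairs, Cux1 with Cux2 and Fezf2 with Tbr1, had the highest correlation across libraries within the upper and the deep set. Each window runs from 250 bases before to 50 bases after a RefSeq transcript start (GRCm38.p6), 5′ to 3′ on the strand of the gene. RefSeq windows were found for 8 of the 9 genes, all but Foxp2. Capitals mark exact matches, on either strand, to the GC box GGGCGG and the CCAAT box CCAAT. The windows are chr5:136565932-136566231 (minus strand) for Cux1, chr5:122049802-122050101 (minus strand) for Cux2, chr14:12345816-12346115 (minus strand) for Fezf2 and chr2:61804203-61804502 (plus strand) for Tbr1.
Cux1: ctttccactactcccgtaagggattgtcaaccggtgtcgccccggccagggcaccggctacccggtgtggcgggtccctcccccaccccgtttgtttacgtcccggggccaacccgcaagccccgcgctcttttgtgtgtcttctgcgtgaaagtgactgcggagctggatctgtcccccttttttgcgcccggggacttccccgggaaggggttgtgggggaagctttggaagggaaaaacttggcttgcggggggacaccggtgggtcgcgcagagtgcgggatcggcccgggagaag
Cux2: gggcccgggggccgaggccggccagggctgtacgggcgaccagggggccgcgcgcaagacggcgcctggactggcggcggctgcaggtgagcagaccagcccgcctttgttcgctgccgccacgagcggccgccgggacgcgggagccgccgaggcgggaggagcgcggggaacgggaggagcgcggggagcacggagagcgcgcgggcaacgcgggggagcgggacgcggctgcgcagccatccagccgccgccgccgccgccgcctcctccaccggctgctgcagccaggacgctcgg
Fezf2: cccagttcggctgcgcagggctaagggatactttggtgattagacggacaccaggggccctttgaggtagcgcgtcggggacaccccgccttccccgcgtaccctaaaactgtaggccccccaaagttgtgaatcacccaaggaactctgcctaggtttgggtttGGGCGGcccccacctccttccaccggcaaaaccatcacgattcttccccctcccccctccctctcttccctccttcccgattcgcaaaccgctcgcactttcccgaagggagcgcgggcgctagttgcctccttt
Tbr1: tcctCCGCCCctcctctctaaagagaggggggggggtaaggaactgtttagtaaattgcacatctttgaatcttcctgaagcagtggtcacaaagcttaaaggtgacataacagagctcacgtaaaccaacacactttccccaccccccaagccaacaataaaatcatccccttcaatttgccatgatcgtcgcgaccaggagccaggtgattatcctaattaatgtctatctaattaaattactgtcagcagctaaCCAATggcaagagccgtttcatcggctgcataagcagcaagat

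The 4 windows were unlike in composition. GC content was 65% for Cux1, 80.3% for Cux2, 61.3% for Fezf2 and 46% for Tbr1, against a median of 52.7% over all 32851 windows of this length. Cux2 held 48 CpG dinucleotides, Cux1 25, Fezf2 20 and Tbr1 7, and the median window also held 7. Fezf2 had 1 GC box match, Tbr1 had 1 GC box and 1 CCAAT match, and the Cux1 and Cux2 windows had neither. Among all windows, 35.7% held a GC box, 37.4% a CCAAT box and 13.6% a TATAAA match, and none of the 4 windows held the last. A second RefSeq start of Cux2 has a window (chr5:122047776-122048075, minus strand) of 56.7% GC with 4 CpG dinucleotides and 1 TATAAA match. A match is a description of the letters only.

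Levels of different genes were compared per length, as mean CPM per kilobase of annotated exons over the 16 libraries. Tbr1, a T-box factor of layer 6 and subplate neurons, stood highest at 35.6, and its libraries did not overlap with those of any other marker. Cux2 followed at 17.6, Fezf2 at 16.1, Rspo1 at 11.3, Rbp4 at 10.4 and Bcl11b at 9.13, and within these 5 genes the libraries of each overlapped with those of its neighbour in the order. Cux1 at 4.91 and Rorb at 4.08 overlapped with each other and lay below Bcl11b in all libraries. Foxp2 was lowest, at 0.905. The biological coefficient of variation within groups, estimated by edgeR, ran from 8.90% for Cux1 to 17.8% for Rspo1.

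Cux1 encodes a homeodomain factor of upper layer neurons. It lies at chr5:136248135-136567490 on the minus strand (GRCm38). Its values in replicates 1 to 4 were 95.9, 101.2, 98.4 and 103.9 CPM in Ch25h+/+ Tau-, and 77.4, 92.2, 106.3 and 103.3 CPM in Ch25h+/+ Tau+. In Ch25h-/- they were 93.3, 111.3, 97.3 and 102.6 CPM without tau and 95.5, 97.6, 94.7 and 101.4 CPM with tau. All groups overlapped, and the lowest library of the 16 was Ch25h+/+ Tau+ replicate 1. The group means were 99.9 ± 3.47, 94.8 ± 13.1, 101.1 ± 7.78 and 97.3 ± 2.99 CPM in that order (SD, n = 4 each).

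Cux2, the close relative of Cux1 that is more restricted to upper layers, lies on the same chromosome at chr5:121856366-122050102 (minus strand). Without tau it measured 192.7, 189.9, 167.6 and 202.4 CPM in Ch25h+/+, and 156.6, 191.4, 166.7 and 175 CPM in Ch25h-/-. With tau it measured 139.5, 176.8, 200.5 and 199.9 CPM in Ch25h+/+, and 181.2, 161.5, 171.9 and 163.7 CPM in Ch25h-/-. The spread was widest in Ch25h+/+ Tau+ (SD 28.7 CPM, n = 4), where replicate 1 was again the lowest of all 16 libraries.

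Rorb, a nuclear receptor of layer 4 neurons, lies at chr19:18930605-19111196 (minus strand), 15.4 Mb from Ch25h. It ranged from 37.5 CPM in Ch25h+/+ Tau+ replicate 1 to 52.5 CPM in Ch25h-/- Tau- replicate 2, with group means of 42.9 ± 5.30, 44.1 ± 6.52, 47.3 ± 4.60 and 46.3 ± 2.14 CPM (SD, n = 4 each, Ch25h+/+ first and Tau- before Tau+). All 4 groups overlapped.

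Rspo1 encodes a secreted R-spondin that enhances Wnt signalling. The gene lies at chr4:124986430-125009099 (plus strand), and the antisense gene Gm12930 overlaps it with 119 counts summed over the 16 libraries. Rspo1 values were 21, 28.6, 24 and 29.2 CPM in Ch25h+/+ Tau- and 19.4, 18.1, 28.1 and 20.9 CPM in Ch25h+/+ Tau+. In Ch25h-/- they were 15.2, 29.2, 18.1 and 19.7 CPM without tau and 24, 18.7, 17.5 and 18 CPM with tau. Ch25h+/+ Tau- had the highest mean, 25.7 ± 3.91 CPM (SD, n = 4), and overlapped with every other group through single high libraries such as Ch25h-/- Tau- replicate 2.

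Among the deep markers, Tbr1 (chr2:61802930-61814114, plus strand) measured 204.1, 211.5, 191.1 and 190.8 CPM in Ch25h+/+ Tau- and 206.8, 185.5, 200.4 and 194 CPM in Ch25h+/+ Tau+. Its Ch25h-/- values were 153.4, 218.6, 178.4 and 192.3 CPM without tau and 197.3, 223.6, 187.8 and 192.4 CPM with tau. The groups overlapped, and both the lowest and the highest library were Ch25h-/-. Fezf2 encodes a zinc finger factor that specifies corticospinal neurons of layer 5, and lies at chr14:12342094-12348189 (minus strand). It measured 50.3, 58.3, 48 and 46.9 CPM in Ch25h+/+ Tau- and 61.4, 46.7, 41.9 and 54.4 CPM in Ch25h+/+ Tau+. In Ch25h-/- its values were 39.2, 44.8, 43.1 and 49.3 CPM without tau and 54.4, 59.8, 44.5 and 43.7 CPM with tau. Ch25h-/- Tau- was the lowest group, at 44.1 ± 4.18 CPM (SD, n = 4), and overlapped with all others.

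Bcl11b, also called Ctip2, is a zinc finger factor of layer 5 neurons and of striatal neurons (chr12:107910403-108003602, minus strand). It ranged from 60.4 to 92.3 CPM, with group means of 76.5 ± 9.09, 68.6 ± 6.56, 76.9 ± 13.0 and 74.3 ± 7.76 CPM (SD, n = 4 each, Ch25h+/+ first and Tau- before Tau+). Foxp2, a forkhead factor of layer 6 (chr6:14901349-15441977, plus strand), was tight in both Ch25h+/+ groups, at 14.3 ± 0.804 CPM without and 14.3 ± 0.802 CPM with tau. Its Ch25h-/- libraries were wider, at 9.70, 15.8, 14.7 and 16.7 CPM without tau and 12.6, 20.8, 18.3 and 13.6 CPM with tau. Rbp4 carries retinol, marks a set of layer 5 neurons, and lies at chr19:38116629-38125281 (minus strand), 3.64 Mb from Ch25h. It ranged from 10.2 CPM in Ch25h-/- Tau+ replicate 3 to 18.1 CPM in Ch25h+/+ Tau+ replicate 1. The 4 groups of each of these 3 genes overlapped.

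**Figure D1:**
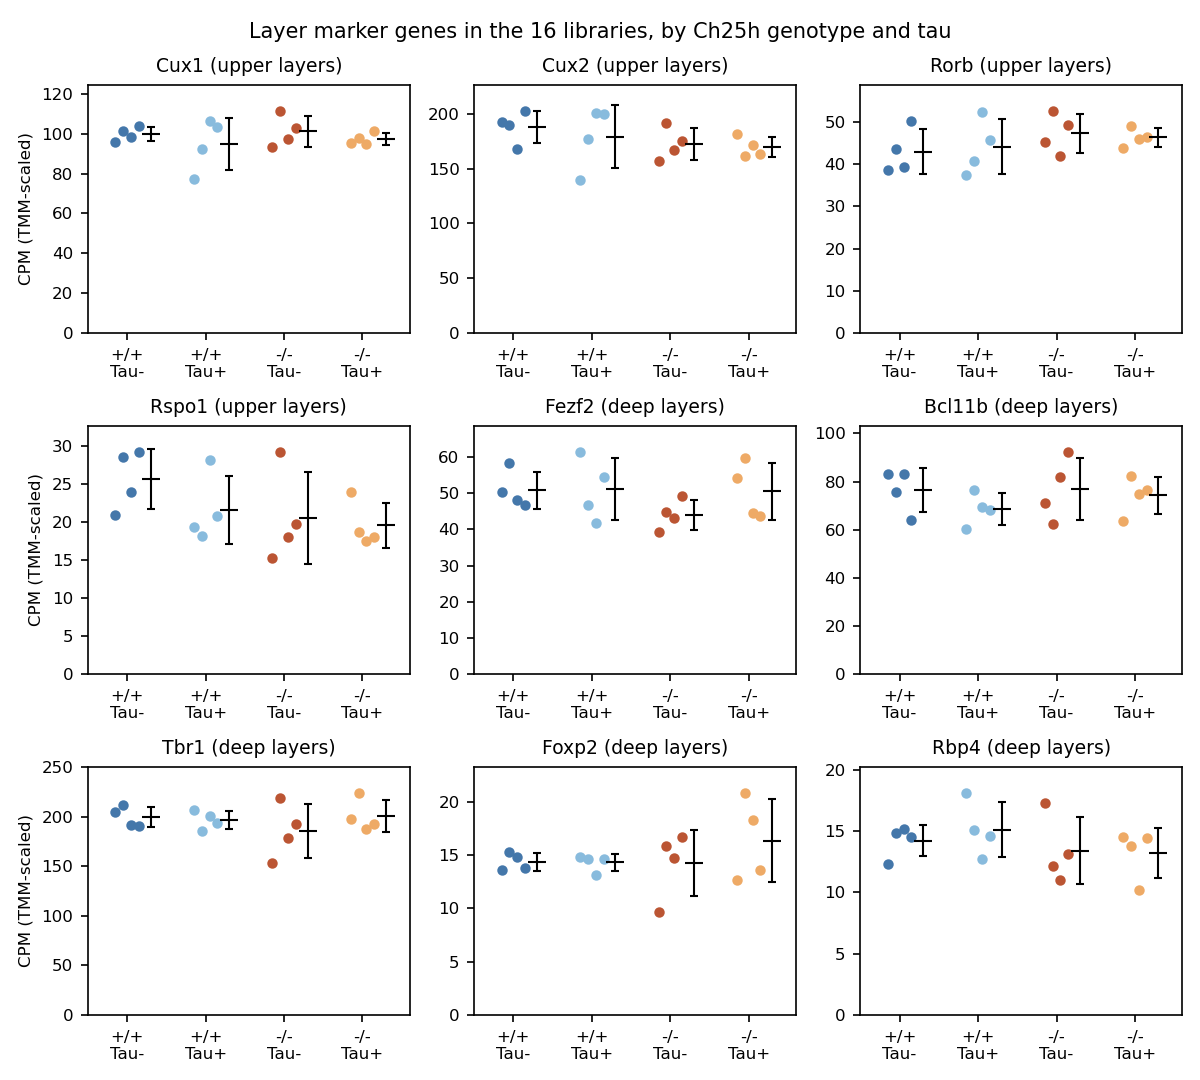
CPM of the 9 layer markers in each of the 16 libraries. Each panel is 1 gene, the vertical axis is CPM on TMM-scaled library sizes from 0, coloured points are libraries (replicates 1 to 4 from left to right) and black marks are the mean and SD of 4 libraries. The groups overlap in every panel, and Ch25h+/+ Tau+ replicate 1 is the lowest library for Cux1, Cux2, Rorb and Bcl11b.

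A pair of libraries stood at the edge for several markers. Ch25h+/+ Tau+ replicate 1 was lowest of the 16 for Cux1, Cux2, Rorb and Bcl11b and highest for Fezf2 and Rbp4. It also had the highest sum of 6 meningeal markers, 136.4 CPM against 44.1 CPM in the lowest library, and the lowest sum of the 10 projection neuron genes, 4902 CPM. Ch25h-/- Tau- replicate 1 was lowest for Tbr1, Fezf2, Rspo1 and Foxp2, with a meningeal sum of 112.8 CPM. Sums of 113.4 and 116.3 CPM were found in Ch25h+/+ Tau+ replicates 2 and 4, which were neither lowest nor highest for any of the 9 markers. The part of this in the marker levels was not tested.

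The tau comparisons asked whether layer markers differ with tau in each Ch25h genotype. None of the 9 passed the threshold in either. In Ch25h+/+ the largest log2 fold changes of Tau+ over Tau- were -0.25 for Rspo1 (SE 0.18) and -0.16 for Bcl11b (SE 0.12), and the lowest adjusted p of the 9 was 0.8006 (edgeR quasi-likelihood test, Benjamini-Hochberg adjustment). The other 7 lay between -0.07 for Cux1 and 0.09 for Rbp4. Of all genes tested, 1.56% passed in this comparison and 5.86% had groups whose libraries did not overlap, against 0 of 9 markers by either count. In Ch25h-/-, Fezf2 had 0.20 (SE 0.12) and Foxp2 0.19 (SE 0.16), all 4 upper markers lay between -0.07 and -0.02, and the lowest adjusted p was 1. There 0.0395% of all genes passed and 2.14% did not overlap, again with 0 of 9 markers by either count.

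Each 95% interval was taken alone, without adjustment for their number, and holds for the fit without covariates. Over the 9 markers, the 95% intervals of the tau fold change spanned 0.65 to 1.31 in Ch25h+/+ and 0.733 to 1.44 in Ch25h-/-. For Cux1 in Ch25h+/+ the interval was 0.84 to 1.08. Without Ch25h+/+ Tau+ replicate 1, the Cux1 and Cux2 log2 differences moved from -0.07 and -0.07 to 0.02 and 0.04. In the same comparison the summed microglial markers were at 291.8 to 312.1 CPM in Ch25h+/+ Tau- and 441.4 to 559.2 CPM in Ch25h+/+ Tau+, and the summed astrocyte markers at 863 to 907.6 CPM and 1170 to 2282 CPM. The summed striatal markers were at 287.9 to 459.7 CPM without tau and 235.6 to 296.2 CPM with tau. All 9 striatal genes had a log2 difference below 0, with Drd2 at -1.49 (SE 0.39, adjusted p = 0.06577 by edgeR) and Adora2a at -1.46 (SE 0.38, adjusted p = 0.06623), and 0 of 9 passed. Apart from the covariate fit given with the striatal score, their part in the layer marker values was not tested.

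Ch25h loss was compared in each tau status. In Tau-, Rspo1 had a log2 fold change of -0.32 (SE 0.18) and Fezf2 of -0.21 (SE 0.12) in Ch25h-/- over Ch25h+/+, Cux2 of -0.13 and Rorb of 0.14, with adjusted p of at least 0.3131 (edgeR). In Tau+, Rbp4 had -0.19 (SE 0.15) and Foxp2 0.19 (SE 0.16), and the lowest adjusted p was 0.4517 (edgeR). The Rspo1 value in Tau- was -0.54 without Ch25h-/- Tau- replicate 2 and 0.09 with library class as a covariate. With that covariate Foxp2 in Tau+ stood at -0.18. No marker passed in either comparison, where 1.03% and 3.55% of all genes did. None had groups without overlap, against 16.2% and 10.2% of all genes. The fold changes had 95% intervals within 0.616 to 1.29 in Tau- and 0.697 to 1.44 in Tau+.

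The test of whether the tau effect differs between Ch25h genotypes (the interaction) called 0 of 9 markers and 0.0338% of all genes, with an adjusted p of 1 for each marker (edgeR) and 95% intervals of the ratio of folds within 0.686 to 1.64. Averaged over Ch25h genotypes, the tau effect ran from -0.16 for Rspo1 to 0.10 for Fezf2, again with 0 of 9 called (lowest adjusted p = 0.7639 by edgeR) beside 0.857% of all genes. Averaged over tau status, Ch25h loss called 20.3% of all genes but 0 of 9 markers, the lowest adjusted p being 0.2052 for Rspo1 (edgeR). DESeq2 also called 0 of 9 in all 7 comparisons. At an unadjusted p under 0.05 edgeR and DESeq2 had 0 of 9 throughout, while limma-voom had Cux2 for Ch25h loss in Tau+ and Cux2 and Rspo1 for the averaged loss. Leaving out Ch25h-/- Tau- replicate 2, the library highest in Rspo1 among Ch25h-/-, gave Rspo1 an averaged difference of -0.35 (adjusted p = 0.03797 by edgeR), the single marker call in the 27 settings run.

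**Figure D2:**
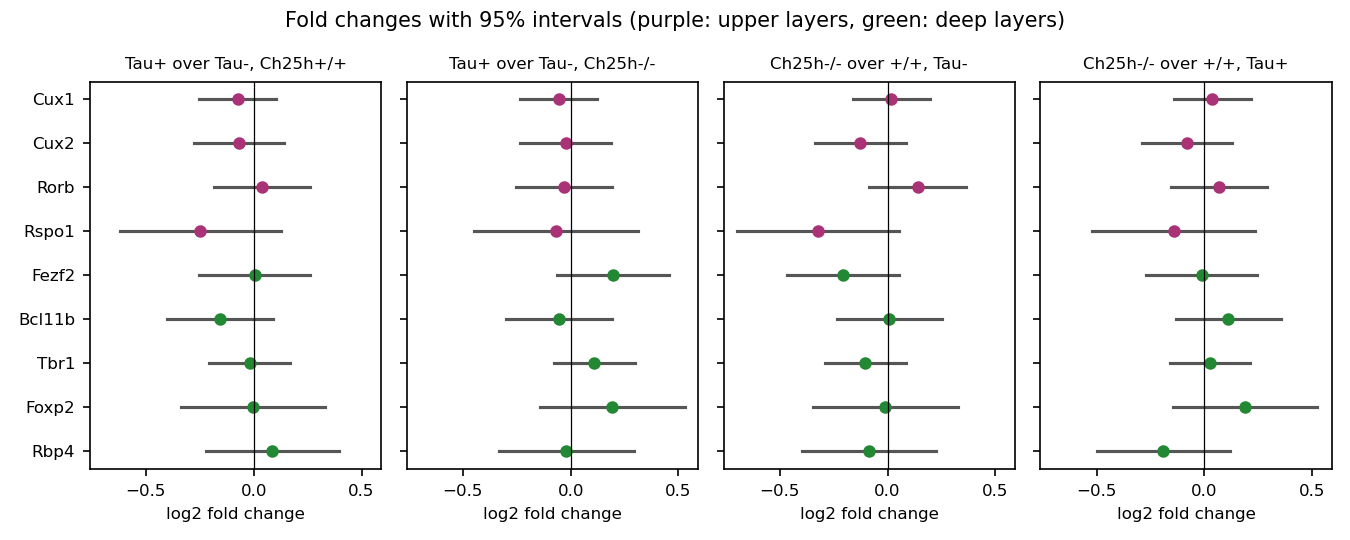
Log2 fold changes of the 9 layer markers in 4 comparisons, on the horizontal axis, with 95% intervals as grey lines. Upper layer markers are purple and deep layer markers green. All intervals include 0, and the widest are those of Rspo1 and Foxp2.

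For the averaged Ch25h loss, the differences of the 9 markers followed the GC content of the exons of their longest annotated transcript. Rorb (41.6% GC), Foxp2 (42.6%), Cux1 (49.95%) and Bcl11b (50.1%) had log2 differences of 0.10, 0.09, 0.03 and 0.06. Tbr1 (51.9%), Cux2 (55.5%), Rbp4 (55.6%), Fezf2 (55.9%) and Rspo1 (59.7%) had -0.04, -0.10, -0.14, -0.11 and -0.23. Across these 9 genes, which share all libraries and are not independent, Pearson's r was -0.94. The 17598 genes with a known GC content gave r = -0.45, with a median log2 difference of 0.18 in the 25% of genes lowest in GC and -0.17 in the 25% highest. For the tau effect in Ch25h+/+, r was -0.40 over the 9 markers, where Rspo1 was both lowest and richest in GC, and 0.04 over all genes.

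When each library was adjusted for its own trend with GC content, a step chosen after seeing the data, the averaged Ch25h loss of the markers lay between -0.07 (Rorb) and 0.06 (Bcl11b). The step removes such a trend by design, and r with GC content over the 9 markers was then 0.56. Rspo1 moved from -0.23 to -0.02, Cux2 from -0.10 to 0.03 and Rorb from 0.10 to -0.07. With library class as a covariate, Rspo1 stood at 0.12 and Foxp2 at -0.33, and r with GC content was 0.63. None of these log2 differences passed the threshold, and the GC trend, the library class and the genotype cannot be told apart here.

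**Figure D3:**
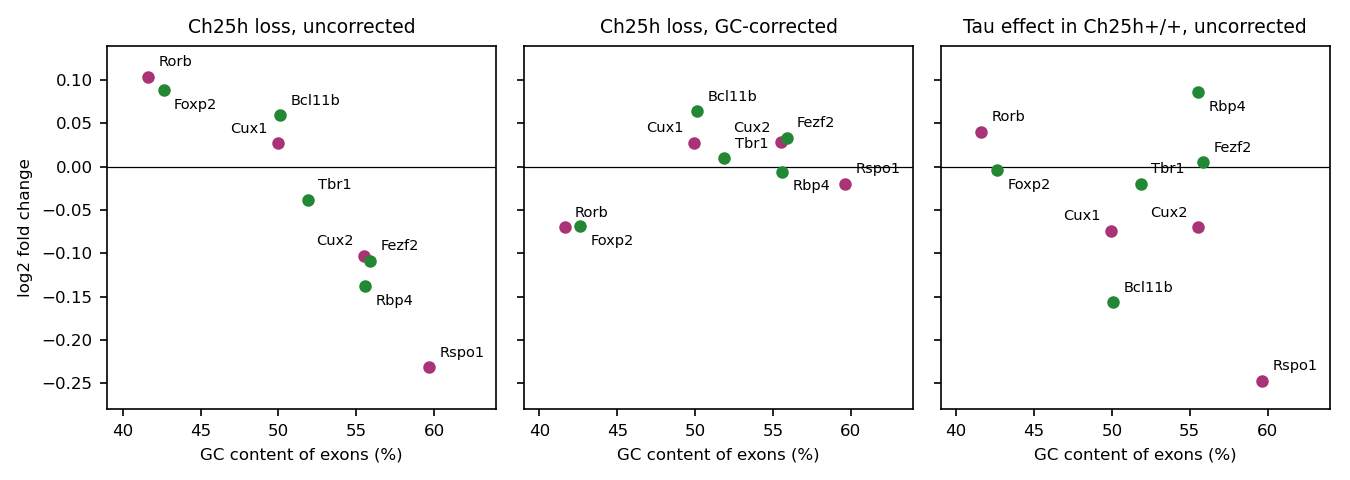
Log2 fold change (vertical axis) against GC content of the longest annotated transcript in percent (horizontal axis) for the 9 layer markers, purple for upper and green for deep layers. The averaged Ch25h loss runs from 0.10 for Rorb at the lowest GC content to -0.23 for Rspo1 at the highest (r = -0.94). After correction for GC, which removes such a trend by design, it lies between -0.07 and 0.06 (r = 0.56). For the tau effect in Ch25h+/+, on the right, r is -0.40.

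Upper and deep markers were then set against each other within each library, as the mean of log2(CPM + 0.5) of the 4 upper markers minus that of the 5 deep markers. The difference was 0.53, 0.59, 0.49 and 0.85 in replicates 1 to 4 of Ch25h+/+ Tau- and 0.20, 0.45, 0.90 and 0.61 in Ch25h+/+ Tau+. It was 0.59, 0.86, 0.56 and 0.50 in Ch25h-/- Tau- and 0.64, 0.30, 0.54 and 0.54 in Ch25h-/- Tau+. The lowest and the highest of the 16 libraries were both Ch25h+/+ Tau+, and all groups overlapped. Group means were 0.62 ± 0.16, 0.54 ± 0.30, 0.63 ± 0.16 and 0.50 ± 0.15 (SD, n = 4 each). The tau difference was -0.08 in Ch25h+/+ and -0.12 in Ch25h-/-, and the difference with Ch25h loss was 0.01 in Tau- and -0.04 in Tau+. Each was smaller than the pooled SD between libraries of a group, 0.20, and all but the tau difference in Ch25h-/- took either sign when 1 library was left out.

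**Figure D4:**
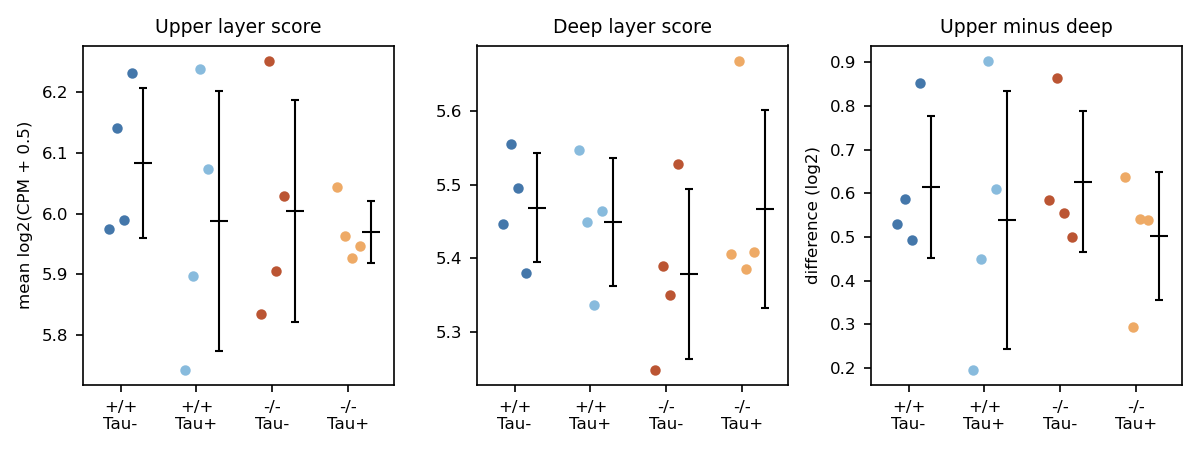
Layer scores per library, by group: mean log2(CPM + 0.5) of the 4 upper markers (left) and the 5 deep markers (middle), and their difference (right). Points are libraries, black marks the mean and SD of 4 libraries, and the vertical axes do not start at 0. The groups overlap in all panels, and the difference runs from 0.20 to 0.90 within Ch25h+/+ Tau+ alone.

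The upper markers varied together across libraries more than the deep markers did by their median correlation, a difference that was not tested. Among 36 pairs of the 9 genes, the 6 upper pairs all had r above 0 (0.35 to 0.76, median 0.61), the 10 deep pairs ran from -0.45 to 0.66 (median 0.11), and the 20 mixed pairs from -0.45 to 0.54 (median -0.05). After adjustment over all 72 tests, 2 pairs passed for Pearson's r and 2 for Spearman's rho, Cux1 with Rorb by both. Cux1 with Rorb had r = 0.75 (permutation test, adjusted p = 0.00936) and rho = 0.74 (adjusted p = 0.03264), with r = 0.62 without the 2 libraries farthest from the median of Cux1. Within the library classes this r was 0.74 (rRNA-rich) and 0.75 (rRNA-poor). Cux1 with Cux2 had r = 0.76 (permutation test, adjusted p = 0.03024) and rho = 0.62 (adjusted p = 0.08849), and r = 0.57 without the 2 farthest libraries, with 0.83 and 0.92 within the classes. The raw p-values of r were 0.00013 and 0.00084 (permutation tests, two-sided). Cux2 with Rspo1 passed by rho, 0.73 (permutation test, p = 0.00185, adjusted p = 0.0333), and not by r, 0.68 (p = 0.00424, adjusted p = 0.05088), with r = 0.72 without the 2 libraries farthest from the median of Cux2 and 0.91 and 0.52 within the classes.

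Fezf2 with Tbr1 had the highest r of the deep pairs, 0.66 (permutation test, p = 0.00383, adjusted p = 0.05088), and rho = 0.63 (p = 0.01079, adjusted p = 0.08849). Its r was 0.56 without the 2 farthest libraries, and 0.76 and 0.57 within the rRNA-rich and rRNA-poor libraries. Tbr1 with Foxp2 had r = 0.65 (permutation test, p = 0.01175, adjusted p = 0.08849) and rho = 0.30 (p = 0.2633, adjusted p = 0.5416), and its r was -0.05 without Ch25h-/- Tau- replicate 1 and Ch25h-/- Tau+ replicate 2, on which the relation rests. The lowest values were those of Rbp4, with r = -0.45 with Foxp2 and -0.45 with Cux1 (permutation tests, adjusted p = 0.3301 for each).

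**Figure D5:**
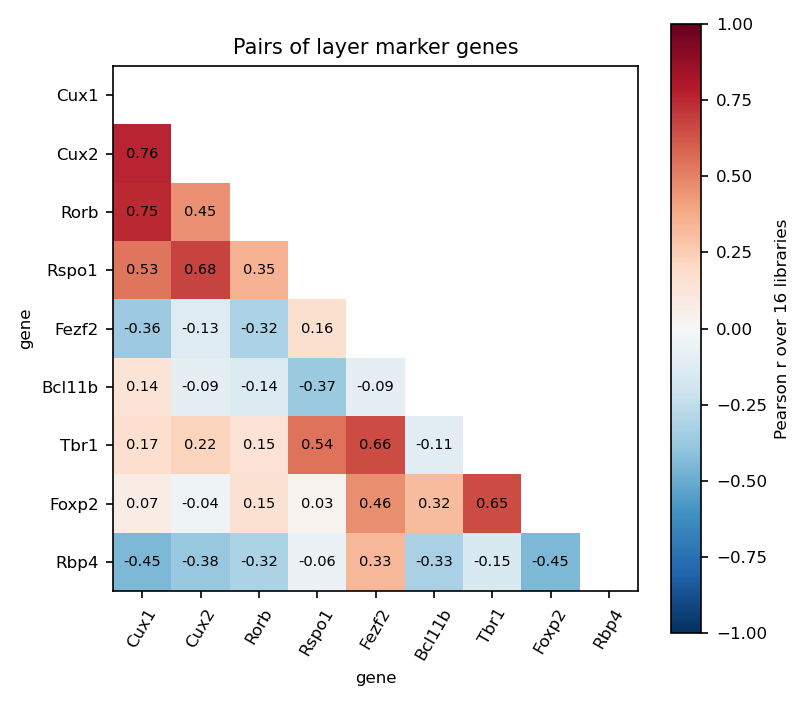
Pearson's r of log2(CPM + 0.5) over the 16 libraries for each of the 36 pairs of layer markers, with red above and blue below 0. The block of upper markers at the top left is positive throughout, from 0.35 to 0.76, while the deep markers include pairs as low as -0.45.

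For each marker, the 2 genes with the closest profile over the 16 libraries were listed among 12737 genes whose log2 CPM averaged 2 or more, as a description without a test. They were Ahcyl1 (r = 0.90) and Rgs6 (0.90) for Cux1, Dab2ip (0.92) and Nfic (0.90) for Cux2, and Foxo3 (0.81) and Lrrc55 (0.81) for Rorb. For Rspo1 they were Stac2 (0.96) and Vamp1 (0.94), the highest values of any marker. Among the deep markers they were Nxph3 (0.89) and Ubxn6 (0.86) for Fezf2, Fam163b (0.92) and Gfra2 (0.88) for Tbr1, and AU022252 (0.84) and Otud6b (0.81) for Bcl11b. The closest to Foxp2 were Cnot9 (0.86) and Mpc1-ps (0.85), and to Rbp4 Ngrn (0.85) and Mageh1 (0.82). No other layer marker of the 9 was among these 18 genes.

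Bcl11b and Foxp2 are also expressed in the striatum, which lies below the frontal cortex. The score of 9 striatal genes, among them Drd1, Drd2 and Adora2a, was compared with each marker over the 16 libraries, and 0 of 9 passed. For Bcl11b r was 0.39 (permutation test, p = 0.1345, adjusted p = 0.5581) and rho 0.44 (p = 0.09407, adjusted p = 0.5581), with r = 0.60 without the 2 libraries of most extreme score, 0.61 in the rRNA-poor and 0.33 in the rRNA-rich libraries. For Foxp2 r was -0.04 (permutation test, p = 0.8821, adjusted p = 0.934). With the striatal score as a covariate the tau difference of Bcl11b in Ch25h+/+ moved from -0.16 to -0.01, and that of Fezf2 moved from 0.01 to -0.17.

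Other layer genes were read from longer lists, without the 9. The upper list held 13 genes, the deep list 20 and the list of projection neuron genes 10, all tested. With tau, 0 of these 43 genes passed in either Ch25h genotype. In Ch25h+/+ the log2 difference was above 0 in 1 of 13 upper genes (median -0.09) and in 9 of 20 deep genes (median -0.01), beside 47.8% of all genes (median -0.01). In Ch25h-/- it was above 0 in 5 of 13 upper genes (median -0.03) and in 14 of 20 deep genes (median 0.06), beside 52.8% of all genes (median 0.01). The genes of a list share all libraries and are not independent. Among the upper genes, Ch25h+/+ Tau+ replicate 1 was lowest of its group for Rasgrf2, Pou3f2, Pou3f3, Kitl and Inhba. It was highest of its group for Calb1, Otof and Lmo4. For tau in Ch25h+/+ the smallest p belonged to Otof (-0.45, SE 0.21), Inhba (-0.36, SE 0.21) and Mdga1 (-0.31, SE 0.23) in the upper list and to Ntsr1 (0.33, SE 0.14), Osr1 (0.86, SE 0.37) and Ctgf (0.27, SE 0.14) in the deep list, and the projection neuron gene Slc30a3 had -0.31 (SE 0.11). In Ch25h-/- they were Inhba (-0.37), Kitl (-0.19) and Lmo4 (0.11), and Etv1 (0.33), Ntsr1 (0.29) and Ldb2 (0.20). Ntsr1, a neurotensin receptor of layer 6 neurons, had a positive difference in both genotypes and did not pass on average (0.31, SE 0.10, adjusted p = 0.1953 by edgeR).

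Ch25h loss in Tau- called 0 of the 43, with the smallest p in the upper list for Kitl (0.33), Calb1 (0.24) and Rasgrf2 (0.17) and in the deep list for Cplx3 (-0.36), Deptor (0.31) and Nxph4 (-0.52). Smaller p-values than these belonged to 2 projection neuron genes. They were Slc17a7, the vesicular glutamate transporter VGLUT1, at -0.29 (SE 0.08, adjusted p = 0.06485 by edgeR) and Neurod1 at 0.33 (SE 0.11, adjusted p = 0.1087). In Tau+ it called 2 of the 43, both in the deep list, beside 3.55% of all genes. Etv1, an ETS factor of layer 5, was higher in Ch25h-/- by 0.39 (SE 0.10, adjusted p = 0.04467 by edgeR), and Cplx3, a complexin of subplate neurons, was lower by a log2 fold change of -0.60 (SE 0.12, adjusted p = 0.01605). With 1 library left out at a time, Etv1 passed in 6 of 16 fits and Cplx3 in 14, the exceptions being the fits without Ch25h-/- Tau+ replicate 3 (-0.55) and replicate 4 (-0.56). With library class as a covariate neither passed (Etv1 0.20 and Cplx3 -0.45, adjusted p = 0.976 for each by edgeR). With GC offsets Etv1 stood at 0.19 (adjusted p = 0.3096) and Cplx3 at -0.52 (adjusted p = 0.04963). Cplx3 measured 23.9, 21.4, 21 and 20.6 CPM in Ch25h+/+ Tau+ and 15.9, 16.1, 12.5 and 12.9 CPM in Ch25h-/- Tau+, without overlap. Between the same groups the summed microglial markers were at 441.4 to 559.2 CPM and 281.5 to 350.7 CPM. The summed astrocyte markers were at 1170 to 2282 CPM and 930.9 to 1127 CPM, while the oligodendrocyte and endothelial sums overlapped. Their part in the Etv1 and Cplx3 values was not tested. The interaction called 0 of the 43. The smallest p belonged to Otof (0.49), Plxnd1 (0.19) and Lmo4 (0.14) in the upper list and to Ldb2 (0.37), Etv1 (0.23) and Ctgf (-0.28) in the deep list, while the projection neuron gene Slc30a3, a vesicular zinc transporter, had 0.36 (SE 0.16, adjusted p = 1 by edgeR).

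For the averaged Ch25h loss, 2 of 13 upper genes rose, Kitl (0.31, adjusted p = 0.017) and Rasgrf2 (0.21, adjusted p = 0.02243, edgeR). Of 20 deep genes, Etv1 (0.27) and Deptor (0.34) rose and Cplx3 (-0.48) and Nxph4 (-0.57) fell. Among the projection neuron genes, Neurod1 (0.24) rose and Slc17a7 (-0.20) and Emx1 (-0.41) fell. Over the 3 lists 10 of 43 genes passed, beside 20.3% of all genes. With 1 library left out at a time, Neurod1 passed in 4 of 16 fits and Rasgrf2 in all but the fit without Ch25h-/- Tau+ replicate 4, while Kitl, Etv1, Deptor, Cplx3, Nxph4, Slc17a7 and Emx1 passed in all 16. With library class as a covariate 0 of the 43 passed, as did 0 of all 17736 genes. Rasgrf2 then stood at 0.22 and Cplx3 at -0.31, Etv1 at 0.06, Kitl at -0.03 and Deptor at -0.01. Nxph4 stood at -0.35, Emx1 at -0.17, Slc17a7 at -0.08 and Neurod1 at 0.08. With the GC correction 2 of the 43 passed, Cplx3 at -0.42 (adjusted p = 0.018 by edgeR) and the upper layer gene Plxnd1 at 0.30 (adjusted p = 0.04739), against 0.07 (adjusted p = 0.5497 by edgeR) without it. After the same correction Nxph4 stood at -0.315, Emx1 at -0.08, Slc17a7 at -0.05 and Neurod1 at 0.10.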

How the data were processed

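The deposited table held raw counts per gene for 16 libraries, not normalized by the authors. Per the submitters' processing notes, STAR 2.7 and the builds GRCm38 and mm10 were used. The counting program, annotation and strand setting are not given in the sources used here. Library type was SMARTer mRNA per the labels' protocols.

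Counts were filtered with filterByExpr and tested in R 4.3.3 by two-sided quasi-likelihood F tests (edgeR 4.0.16, TMM scaling), in 1 fit of 4 group means, with Benjamini-Hochberg adjustment over 17736 genes at 0.05. Intervals use the t distribution. CPM used TMM-scaled sizes; scores and correlations used log2(CPM + 0.5), with 100000 permutations. The test was checked on simulated counts. Positions, exonic lengths (all exons of a gene) and GC content (its longest transcript) came from GENCODE M21, promoters from RefSeq. Alternatives were other size factors, 2 filters (no minimum beyond 1 count, or a mean of at least 50), DESeq2 1.42.0, limma-voom (limma 3.58.1), subset fits, 2 covariates and leaving out each library. GC-adjusted offsets (loess span 0.5), fits within library class (rRNA-rich above 1000 CPM of CT010467.1 on library totals) and the longer lists under each alternative were added after seeing the data. The members and lists were chosen with earlier results of these data known. Named genes were the 9 markers, list genes past the threshold or with the 3 smallest p per list, the 2 closest profiles per marker, Ch25h, Prnp, CT010467.1 and Malat1; other genes were chosen after their values were seen. A projection neuron gene counted in the lists is not reported here by name. Replicates were compared: chi-square per gene was 8.33 to 39.5 within groups, where 1 is sampling noise.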

Additional observations from a re-analysis of the deposited data

Results flagged for a closer look

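In 40 sets of 4 libraries (the 9 markers and the layer score in each group), 2 libraries stood far from the other 3, where chance gives about 1 in 20 sets. The number flagged is no more than that rate gives. Foxp2 was 13.1 CPM in Ch25h+/+ Tau+ replicate 3, and the nearest of the other libraries had 14.6 CPM. Rbp4 was 10.2 CPM in Ch25h-/- Tau+ replicate 3, and the nearest had 13.8 CPM.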

How the results depend on the processing

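No paired analysis was possible because replicate numbers were given in record order and pair no libraries. Of 1575 marker fold changes recomputed in 27 settings, 46 moved by 1 SE or more and 136 changed sign, none of them a called value. Library class as a covariate moved 16, GC-corrected offsets 15, and the striatal score and the omission of Ch25h+/+ Tau+ replicate 1 moved 4 each. The count of markers past the threshold stayed at 0 in every comparison and setting, except that it was 0 to 1 for the averaged Ch25h loss when 1 library was left out. The layer score differences moved by less than 1 SD. With 1 library left out they were -0.20 to 0.04 (tau in Ch25h+/+), -0.17 to -0.04 (tau in Ch25h-/-), -0.07 to 0.10 (Ch25h loss in Tau-), -0.15 to 0.08 (Ch25h loss in Tau+) and -0.16 to 0.07 (interaction). For the averaged Ch25h loss, the upper list had 4 genes past the threshold with limma-voom, 0 with library class, 1 with GC offsets and 1 to 4 with 1 library left out. The deep list had 0 with library class and 1 with GC offsets. The projection neuron list had 2 with no filter beyond 1 count, 0 with library class, 2 with the striatal score, 0 with GC offsets and 2 to 5 with 1 library left out. For Ch25h loss in Tau+, the deep list had 1 with only the libraries compared, 0 with library class, 1 with GC offsets, 0 with only rRNA-poor libraries and 0 to 3 with 1 library left out. Over all genes the averaged Ch25h loss called 3603, 0 with library class and 683 with GC offsets, and Ch25h loss called 629, 10 and 188 in Tau+ and 182, 0 and 13 in Tau-. The causes were not tested.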
